A study of Mus musculus with 43 samples.

Results

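The cauda epididymis of mice without the Rnase9-12 gene cluster was compared with the caput epididymis of the same genotype. All small RNA libraries labelled as KO cauda tissue (n = 3) and KO caput tissue (n = 3) were taken, which makes 6 of the 43 libraries of the series. All RNA classes of the count table were considered, 4890 RNAs in all, of which 3488 passed the filter on low counts and were tested. The question was which segment differences of small RNAs are present in tissue without these genes.

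The mice were of the FVB strain, wild type (WT) or homozygous for a CRISPR-Cas9 deletion of the locus that holds Rnase9, Rnase10, Rnase11 and Rnase12 (KO), and 8 to 12 weeks old. KO caput and KO cauda mice both carried the deletion, and neither received any treatment named in the labels. Total RNA of whole tissue was treated with polynucleotide kinase, which removes 3' phosphates, and sequenced with ARM-seq, a small RNA protocol for tRNA-derived RNAs. Whether a tissue library held 1 mouse or several is not given in the sources used here. WT caput and WT cauda libraries (n = 3 each) are given only beside the KO values. The transcripts of the deleted genes are not among the counted RNAs, so the genotype labels were not checked from these counts. Whole tissue holds epithelium, smooth muscle, blood cells and the sperm and fluid in the duct. In such samples, fewer cells of a type and less RNA per cell cannot be told apart.

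The caput is the first segment of the epididymis that sperm enter, where they begin to mature. The cauda is the last segment, has a thick smooth muscle coat and stores mature sperm. The genes of the cluster encode noncanonical members of the RNase A family that are made in the male reproductive tract, while canonical members of the family cleave RNA. Fragments of tRNAs (tRFs) and of rRNAs are abundant small RNAs of the epididymis and of mature sperm, miRNAs repress mRNAs that match their seed, and piRNAs are germ cell small RNAs that silence transposons.

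Mature sequences of miRNAs whose genes were compared are shown because they place the genes in seed families, with the seed (bases 2 to 8 from the 5' end) in capitals. They are RefSeq entries on GRCm38.p6, where 255 of the 415 miRNA genes of the table had a mature entry. For each gene the arm usually taken as the main product is given. The counts are per miRNA gene, so the arm that was sequenced is not known. Gene positions given below are on GRCm38. The first set holds genes that were lower in the KO cauda.
mmu-miR-204-5p: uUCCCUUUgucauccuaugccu
mmu-miR-146b-5p: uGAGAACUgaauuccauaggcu
mmu-miR-148a-3p: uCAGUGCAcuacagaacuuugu
mmu-miR-429-3p: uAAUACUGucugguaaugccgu
The other members of the miR-200 family share the seed of miR-429 (miR-200b and miR-200c) or hold a second seed (miR-200a and miR-141).
mmu-miR-200b-3p: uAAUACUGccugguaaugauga
mmu-miR-200c-3p: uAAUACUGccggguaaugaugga
mmu-miR-200a-3p: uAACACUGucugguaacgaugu
mmu-miR-141-3p: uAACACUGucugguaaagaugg
The miRNAs of the Hox clusters fall into a miR-196 seed group, whose genes were higher in the KO cauda, and a miR-10 seed group, whose genes were not called. The miR-99a sequence is shown because its gene was called higher.
mmu-miR-196b-5p: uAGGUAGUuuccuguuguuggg
mmu-miR-196a-5p: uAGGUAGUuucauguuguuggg
mmu-miR-10a-5p: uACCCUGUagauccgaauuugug
mmu-miR-10b-5p: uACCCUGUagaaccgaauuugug
mmu-miR-99a-5p: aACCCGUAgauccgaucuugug

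Summed counts ran from 82874623 to 209912888 in the KO caput and from 30142156 to 67360266 in the KO cauda, so depth moved with the segment. In a principal component analysis of the 6 libraries, KO cauda replicate 3 stood apart from the other KO cauda libraries on both leading components. KO caput replicate 3 lay to the same side of the other KO caput libraries on both. The TMM scaling factor was 1.05 for KO cauda replicate 3 and 0.50 and 0.55 for KO cauda replicates 1 and 2. It was 1.07 and 1.12 for KO caput replicates 1 and 2, and higher for KO caput replicate 3. Replicate 3 was the deepest library of each tissue group that holds one. Its TMM factor was also the highest of its group in the WT corpus and WT cauda, but not in the WT caput. The cause of this pattern was not tested. Counts by class below were also made without the replicate 3 libraries of all groups, chosen after the data were seen. As checks of the tissue labels, all 5 members of the miR-200 family, a marker of epithelium, were counted in each of the 6 libraries, and Mir122, a marker of liver, had counts in 1 library, at 0.00318 CPM (counts scaled to library size after TMM normalization). No marker of a segment was among the lists, so the segment labels were not checked in this way.

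In the KO cauda, fragments of 18S, 28S and mitochondrial rRNA, piRNA loci, 16 mitochondrial tRNA entries and 53 miRNA genes were higher than in the KO caput. tRFs, Snord89 and 11 miRNA genes were lower. An RNA was called at an adjusted p under 0.05 in edgeR's quasi-likelihood test and an absolute log2 fold change above 1. Of 3488 RNAs tested, 598 (17.1%) were called higher and 300 (8.6%) lower in the KO cauda. The 3 KO cauda libraries lay outside the range of the 3 KO caput libraries for 860 of the 898 RNAs called, against 1355 (38.8%) of all RNAs tested (19.2% above and 19.6% below). The median log2 fold change of all RNAs was 0.03. In each class, up to 3 RNAs per direction were named for the smallest p among called RNAs whose libraries did not overlap. Their lack of overlap, where given below, follows from that choice.

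The split between the directions depended on the scaling. With DESeq2 size factors 575 RNAs were higher and 338 lower, with library size alone 391 and 641, and with TMM factors computed without tRFs, tRNAs or rRNA fragments 488 and 775. Relative to TMM scaling over all RNAs, the latter pair moved the median of all RNAs by -0.75 and -0.50. Without the replicate 3 libraries 924 RNAs were higher and 203 lower, and without KO cauda replicate 2 the number lower was 186. With the replicate number as a block, 745 (21.4%) were higher and 429 (12.3%) lower. After each library was thinned to the smallest summed count, 487 were higher and 207 lower.

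**Figure D1:**
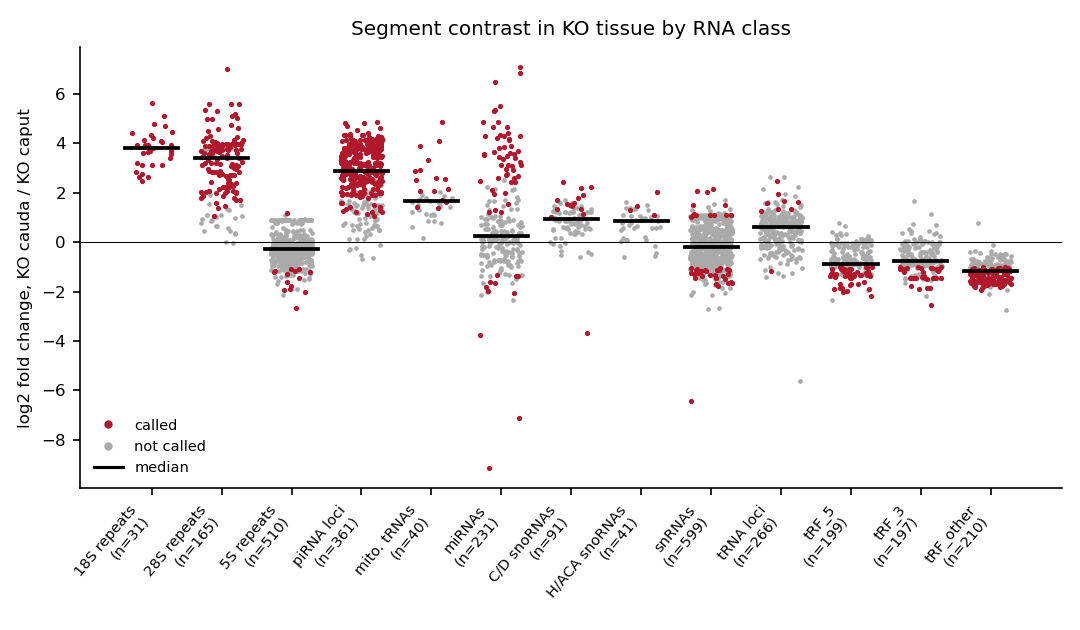
Log2 fold change of KO cauda over KO caput (y axis) for each RNA tested, by RNA class (x axis, with the number tested). Red points were called, grey points were not, and black bars are class medians. The medians of 18S repeats (3.81), 28S repeats (3.39) and piRNA loci (2.88) lie far above 0 and those of the tRF types (-0.86, -0.77 and -1.15) below it.

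As shares of all counts, where a read counts on each repeat it matches, 5S rRNA features held most of each library. The 5S repeats and sequence took 82.2% ± 0.993 of the counts of the KO caput and 74.1% ± 0.84 of those of the KO cauda (mean ± SD, n = 3 each). The share of 28S fragments was 1.76%, 1.27% and 1.32% of the counts of KO caput replicates 1 to 3 and 7.93%, 8.1% and 9.51% of those of KO cauda replicates 1 to 3. The 18S fragments took 0.28% ± 0.0449 of the counts of the KO caput and 3.21% ± 0.137 of those of the KO cauda, a ratio of 11.4. Every KO cauda library held more 18S, 28S and mitochondrial rRNA and less 5S than every KO caput library. tRFs went the other way and took 2.72%, 3.4% and 5.2% of the counts of KO caput replicates 1 to 3 and 0.836%, 0.69% and 2.1% of those of KO cauda replicates 1 to 3. piRNA loci took 0.0114% ± 0.0019 of the counts of the KO caput and 0.0441% ± 0.00282 of those of the KO cauda, and miRNAs 0.152% ± 0.0256 of the counts of the KO caput and 0.112% ± 0.0057 of those of the KO cauda. Of 16 shares, 9 did not overlap between the segments, with an exact permutation p = 0.1 each (2-sided), the smallest that 3 against 3 libraries allow, and an adjusted p = 0.178. Since a read was counted on each feature it matched equally well, these are shares of counts and not of reads. With only the most counted repeat of each rRNA type and anticodon kept, 5S (repeat and sequence) took 19.5% of the KO caput and 13.8% of the KO cauda. The snRNAs then took 51.5% and 34.5%, so 5S no longer held most of the counts. Among counts other than those on rRNA, the miRNA shares had a log2 ratio of cauda to caput of -0.07 in place of -0.44, while tRFs stayed lower (-1.20) and piRNA loci higher (2.32).

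Fragments of the nuclear 18S, 28S and 5.8S rRNAs, which form the ribosome's subunits, were 2.78 to 21.8 times higher in the KO cauda. The 18S rRNA sequence had 2812, 1999.9 and 1417 CPM in the KO caput and 59399, 51656 and 24702 CPM in the KO cauda, and was higher in the cauda (log2 fold change 4.45, SE 0.54, adjusted p = 3.09e-05). The first 28S sequence had 5794, 4171 and 2608 CPM in the KO caput and 56683, 53293 and 25945 CPM in the KO cauda (log2 fold change 3.43, SE 0.46, adjusted p = 5.28e-05), and the second 28S sequence behaved alike (log2 fold change 3.49). For 5.8S rRNA (5_8S_rRNA), which pairs with 28S rRNA, the values were 6008, 2917 and 3464 CPM in the KO caput and 15368, 11736 and 7312 CPM in the KO cauda (log2 fold change 1.47, SE 0.40, adjusted p = 0.0103). In each of these the lowest cauda library, replicate 3, was above the highest caput library. The 5.8S call was lost without KO caput replicate 2 or 3 or without KO cauda replicate 1 (adjusted p = 0.0576 to 0.094), with library size alone (adjusted p = 0.155) and with TMM factors computed without tRFs, tRNAs or rRNA fragments (adjusted p = 0.0753).

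A difference in fold between 5S and the other rRNAs was not tested. The 5S rRNA, which is made by RNA polymerase III, was not called with all libraries in the fit. Its sequence had 16975, 17027 and 10648 CPM in the KO caput and 36905, 32940.0 and 13615 CPM in the KO cauda, with overlap between the segments (log2 fold change 0.90, SE 0.45, adjusted p = 0.142). The 5S sequence (5S_rRNA) was called higher without the replicate 3 libraries (log2 fold change 1.28, adjusted p = 0.00243). With the replicate block its log2 fold change was 0.81 (adjusted p = 0.0237 in edgeR), under the threshold in size. Shares of all counts use no TMM factor. By share, the 5S repeats and sequence together took 74.1% in the KO cauda and 82.2% in the KO caput. With only the most counted repeat of each rRNA type and anticodon kept, they took 13.8% and 19.5%. Of 510 genomic 5S repeats tested, 1 was called higher and 14 (2.75%, against 8.6% of all RNAs) lower, with a median of -0.28. The repeat rmsk_5S_321 had 4.06, 3.71 and 3.67 CPM in the KO caput and 0.857, 1.06 and 1.12 CPM in the KO cauda (log2 fold change -1.90, SE 0.37, adjusted p = 0.00109), and rmsk_5S_1118 and rmsk_5S_650 were also lower (-2.03 and -1.27 on the log2 scale). None of these 3 overlapped between the segments, which the choice of named repeats required. The call of rmsk_5S_1118 was lost without the replicate 3 libraries (adjusted p = 0.0534) and that of rmsk_5S_650 in a fit of the 6 KO libraries alone (adjusted p = 0.0657).

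All 31 genomic 18S repeats tested were called higher (median log2 fold change 3.81), and 128 of 165 28S repeats (median 3.39), with 0 lower in either class by edgeR, by DESeq2 and at an unadjusted p under 0.05. Repeats of 1 rRNA type share reads, so they are not separate observations. The smallest p belonged to rmsk_28S_211, with 69.3, 44.7 and 60.1 CPM in the KO caput and 969, 1208 and 1188 CPM in the KO cauda (log2 fold change 4.27, SE 0.33, adjusted p = 2.2e-06). The repeat rmsk_28S_390 had 8.21, 7.06 and 4.37 CPM in the KO caput and 80.2, 103 and 114 CPM in the KO cauda (log2 fold change 3.92, SE 0.38, adjusted p = 8.15e-06). Without the replicate 3 libraries 27 18S repeats and 113 28S repeats were called, and after thinning each library to the smallest summed count 27 and 117, where fewer RNAs passed the filter.

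Fragments of mitochondrial rRNA rose as well. The small subunit rRNA of the mitochondrial ribosome had 67, 79.2 and 41.9 CPM in the KO caput and 3978, 3838 and 1497 CPM in the KO cauda (log2 fold change 5.63, SE 0.55, adjusted p = 8.15e-06). The large subunit rRNA had 214, 259 and 138 CPM in the KO caput and 9873, 10552 and 4332 CPM in the KO cauda (log2 fold change 5.34, SE 0.53, adjusted p = 8.15e-06). All 3 cauda libraries were far above all caput libraries, with replicate 3 the lowest of the cauda. The repeats rmsk_18S_0 and rmsk_28S_1 had counts within 0.00557% and 0.00721% of these mitochondrial sequences in each library, so the log2 fold changes of rmsk_18S_0 (5.63) and rmsk_28S_1 (5.34) are those of mitochondrial rRNA counted a second time. Leaving both out gave 594 RNAs higher and 300 lower. A difference between mitochondrial and nuclear rRNA in fold was not tested.

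**Figure D2:**
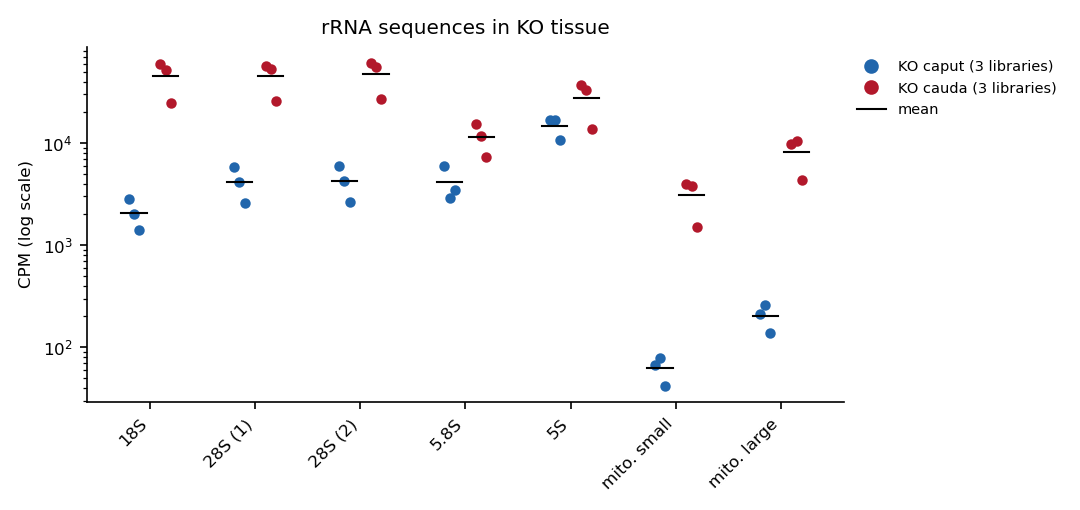
Levels of the 7 rRNA sequences in CPM (log y axis) in the KO caput (blue) and KO cauda (red), 1 point per library in replicate order, with the mean as a bar. Cauda points lie above caput points for each sequence other than 5S, and replicate 3 is the lowest cauda point throughout.

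Mitochondrial tRNAs decode the mRNAs of the organelle. Of 40 entries tested (the same tRNA can be listed under 2 names), 16 (40%, against 17.1% of all RNAs) were called higher and 0 lower in edgeR. At an unadjusted p under 0.05 and by DESeq2 0 were lower, and the median log2 fold change was 1.68. Their share of all counts overlapped between the segments. It was 0.00934%, 0.0128% and 0.00884% in KO caput replicates 1 to 3 and 0.0161%, 0.0334% and 0.0125% in KO cauda replicates 1 to 3 (exact permutation p = 0.2). The tRNA for arginine, mt-tRNA-Arg-TCG-1-1, had 0.0173, 0.0432 and 0.0637 CPM in the KO caput and 1.19, 1.91 and 0.988 CPM in the KO cauda (log2 fold change 4.88, SE 0.68, adjusted p = 7.18e-05). That for lysine, mt-tRNA-Lys-TTT-1-1, had 0.433, 0.432 and 0.267 CPM in the KO caput and 7.91, 8.8 and 2.88 CPM in the KO cauda (log2 fold change 4.11, SE 0.69, adjusted p = 0.000261). The gene mt-Th, the histidine tRNA, had 13.1, 10.3 and 14.9 CPM in the KO caput and 47.7, 86.3 and 34.9 CPM in the KO cauda (log2 fold change 2.14, SE 0.41, adjusted p = 0.000982). The cauda libraries were above the caput libraries in each of these, which were chosen after their values were seen. The number called was 36 without the replicate 3 libraries, 25 without KO cauda replicate 3, 8 without KO cauda replicate 2, 29 with the replicate block and 7 with library size alone.

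Of 361 piRNA loci tested, 278 were called higher in the KO cauda and 0 lower in edgeR, with 2 lower at an unadjusted p under 0.05 and 0 by DESeq2. The median log2 fold change was 2.88, against 0.03 for all RNAs. Loci named after a gene were called higher in 215 of 232 cases (median 3.41). Of the loci named by chromosome band, 63 of 129 were higher (median 1.95).

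The 3 loci with the smallest p were all named after genes. The locus pi-Rc3h1.1 had 0.26, 0.335 and 0.191 CPM in the KO caput and 5.47, 5.13 and 1.96 CPM in the KO cauda (16-fold higher, adjusted p = 2.86e-05). The locus pi-Ip6k1.5 had 0.208, 0.184 and 0.121 CPM in the KO caput and 3.76, 4.51 and 1.86 CPM in the KO cauda (log2 fold change 4.31, SE 0.52, adjusted p = 2.92e-05), and pi-Rc3h1.2 had a log2 fold change of 4.18. Lack of overlap was part of the choice of these 3, and replicate 3 was again the lowest cauda library. The counts are reads within annotated loci, and whether they are piRNAs or fragments of the gene's mRNA cannot be told apart here. The number called ran from 227 to 261 when single libraries were left out, and was 245 without the replicate 3 libraries and 205 after thinning.

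Among markers of germ cells, X-linked miRNA genes were higher in the KO cauda and Mir34c was not called. Of 12 X-linked miRNA genes of the germ cell list that were in the table, 5 were tested and all 5 were called higher (median log2 fold change 3.37), although they form 3 sets of equal counts. The summed level of the list was 0.026 to 0.137 CPM in the KO caput and 1.14 to 1.45 CPM in the KO cauda. Genes this low in the KO caput pass the filter on low counts mostly through other groups. That all 5 tested genes were higher is therefore partly set by the filter. Mir465c-1 and its copy had 3 counts in the KO caput and 21 in the KO cauda, a ratio of 32.3 (95% exact interval 9.63 to 169, counting error only). Mir881 had 0.0173, 0.0648 and 0.0318 CPM in the KO caput and 1.05, 0.0734 and 0.226 CPM in the KO cauda, with cauda replicate 1 far above the others. The Mir881 call was lost without KO caput replicate 1 or 3 or KO cauda replicate 1 (adjusted p = 0.0674 to 0.152) and without the replicate 3 libraries (adjusted p = 0.0541), and that of Mir465b-1 without KO caput replicate 1 or 2 or KO cauda replicate 2 (adjusted p = 0.055 to 0.0756). Mir34c, of a family made in germ cells and multiciliated cells, overlapped between the segments (log2 fold change 0.75, SE 0.62, adjusted p = 0.395). The part of germ cell RNA in the result for piRNA loci was not tested.

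tRFs are sorted by the part of the mature tRNA they come from, tRF_5 from the 5' end, tRF_3 from the 3' end and tRF_other from elsewhere. Of 606 tRF entries tested, 199 were called lower in the KO cauda, against 8.6% of all RNAs, and 0 higher by edgeR and DESeq2 (1 at an unadjusted p under 0.05). By type, 119 of 210 tRF_other entries were lower (median log2 fold change -1.15), 48 of 199 tRF_5 (median -0.86) and 32 of 197 tRF_3 (median -0.77). Tryptophan tRFs had the smallest p, and tRNA-Trp-CCA-5_other had 13.9, 25.3 and 17.8 CPM in the KO caput and 5.41, 5.28 and 5.69 CPM in the KO cauda (log2 fold change -1.80, SE 0.30, adjusted p = 0.000292). Both other named entries of the same anticodon, tRNA-Trp-CCA-1_other and tRNA-Trp-CCA-6_other, had log2 fold changes of -1.76 and -1.64. Every caput library was above every cauda library for these, which the choice of named tRFs required. The number of tRFs lower was 132 without KO caput replicate 2, 118 without KO cauda replicate 2, 336 with library size alone and 402 with TMM factors computed without tRFs, tRNAs or rRNA fragments.

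Since tRNA genes of 1 anticodon share reads, counts were also summed by anticodon and fragment type and fitted with all other RNAs. Of the 150 sums, 61 were called lower, against 7.42% of the 3032 features of this fit, and 0 higher in edgeR and DESeq2 (0 also at an unadjusted p under 0.05). These were 35 of 50 tRF_other sums, 16 of 50 tRF_5 sums and 10 of 50 tRF_3 sums. The log2 fold change was below 0 for 145 of the 150. The number lower was 88 with the replicate block, 25 in a fit of the 6 KO libraries alone, 37 without KO cauda replicate 2, 92 without KO cauda replicate 3 and 101 with TMM factors computed without tRFs, tRNAs or rRNA fragments.

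Valine and glutamine tRFs were among those called. The Val-CAC tRF_5 sum had 364, 602 and 432 CPM in the KO caput and 223, 164 and 137 CPM in the KO cauda (log2 fold change -1.41, SE 0.34, adjusted p = 0.00505), and Val-AAC tRF_5 had a log2 fold change of -1.44. The tRF_other sums of Val-CAC and Val-AAC were also lower (-1.35 and -1.19), while their tRF_3 sums had log2 fold changes of -0.97 and -0.94, under the threshold in size. The Gln-TTG tRF_3 sum had 1195, 1480.5 and 1444 CPM in the KO caput and 738, 324 and 299 CPM in the KO cauda (log2 fold change -1.60, SE 0.39, adjusted p = 0.00509). In these the 3 cauda libraries were below all caput libraries. Gln-TTG tRF_5 and tRF_other had log2 fold changes of -1.38 and -1.48 (adjusted p = 0.029 and 0.00137). The Gln-TTG tRF_5 call was lost without KO caput replicate 3 or KO cauda replicate 2 (adjusted p = 0.104 in each).

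The 5' fragments of Gly-GCC and Glu were not called. Gly-GCC tRF_5 had 904, 439 and 2200.5 CPM in the KO caput and 568, 652 and 1713 CPM in the KO cauda (log2 fold change -0.27, SE 0.72, adjusted p = 0.8), with both segments spread over more than the difference between them. Glu-CTC tRF_5 had 132, 69.2 and 285 CPM in the KO caput and 95.4, 115 and 258 CPM in the KO cauda (log2 fold change -0.05, SE 0.70, adjusted p = 0.966). Replicate 3 was the highest library of its segment in both. Glu-TTC tRF_5 had a log2 fold change of 0.09 (adjusted p = 0.926). Their tRF_other sums did fall for Glu-CTC (-1.02, adjusted p = 0.0075) and Glu-TTC (-1.06, adjusted p = 0.0102), and that of Gly-GCC had -0.89 (adjusted p = 0.0489), under the threshold in size. Their tRF_3 sums were not called, at -0.69, -0.61 and 0.03. The Glu-TTC tRF_other call was lost without KO caput replicate 3 (the anticodon sum Glu-TTC tRF_other then had an adjusted p = 0.0595), and that of the anticodon sum Glu-CTC tRF_other without KO caput replicate 3 or KO cauda replicate 1 or 2, where its log2 fold change was -0.996 to -0.946. Both were lost in a fit of the 6 KO libraries alone (adjusted p = 0.0896 and 0.0956).

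For Lys-CTT, tRF_other had 523, 729 and 682 CPM in the KO caput and 228, 197 and 343 CPM in the KO cauda (log2 fold change -1.33, SE 0.29, adjusted p = 0.00211), and the caput libraries were all above the cauda libraries. Lys-CTT tRF_5 and tRF_3 were not called (-0.88 and -0.84). None of the 3 His-GTG sums was called, with log2 fold changes of -0.93 for tRF_5, -0.38 for tRF_3 and -1.17 for tRF_other. With the replicate block, His-GTG tRF_5 and tRF_other were called lower (adjusted p = 0.00844 and 0.00171).

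**Figure D3:**
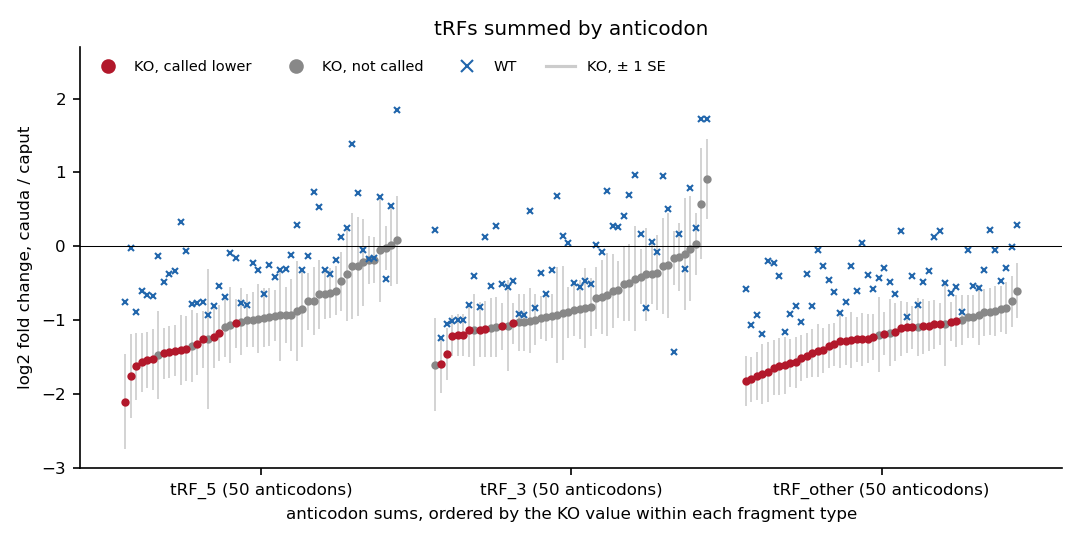
Log2 fold change of cauda over caput (y axis) for tRFs summed by anticodon, ordered by the KO value within each fragment type (x axis, 50 sums per type). Circles are KO values with 1 SE, red where called lower, and crosses are WT values. The KO values lie below 0 for 145 of 150 sums and below the WT value of the same sum for 146.

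Counts on genomic tRNA loci and on whole mature tRNAs had medians above 0, which turned below 0 with library size alone. Of 266 tRNA loci tested, 8 (3.01%) were higher and 1 lower (median log2 fold change 0.64), and of 53 full-length tRNAs 2 (3.77%) were higher and 0 lower, by edgeR and DESeq2 (0 lower at an unadjusted p under 0.05, median 0.69). Among all RNAs tested, 17.1% were called higher. The replicate block gave 25 loci higher and 4 lower, and 5 full-length tRNAs were higher. The medians with library size alone were -0.33 and -0.31. Without KO cauda replicate 1 that of tRNA loci was 0.31. The initiator methionine tRNA locus tRNA-iMet-CAT-1-1 had 37.4, 20.2 and 48 CPM in the KO caput and 99.2, 207 and 280.3 CPM in the KO cauda (log2 fold change 2.47, SE 0.59, adjusted p = 0.00444), with all cauda libraries above the caput. tRNA-Arg-CCT-4-1 and tRNA-Arg-ACG-3-1 were higher too (1.33 and 1.34). All 3 lost their calls with library size alone (adjusted p = 0.0829, 0.409 and 0.42). tRNA-Gln-CTG-4-1, the only one lower, was at the edge of the threshold (log2 fold change -1.16, SE 0.42, adjusted p = 0.0496) and lost its call without any single library other than KO cauda replicate 3 (adjusted p = 0.0686 to 0.187).

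Of 231 miRNA genes tested, 53 (22.9%) were called higher in the KO cauda, against 17.1% of all RNAs, and 11 (4.76%) lower, against 8.6%. Of the 166 with a Mir name, 30 (18.1%) were higher and 11 (6.63%) lower (median log2 fold change 0.10). Of the 65 with another name, mostly a Gm name, 23 (35.4%) were higher and 0 lower (median 0.91). The split by name was made after the data were seen. The median log2 fold change of the class was 0.24, and was -0.58 with library size alone and -0.30 with TMM factors computed without tRFs, tRNAs or rRNA fragments. The number lower was 20 with the replicate block, 34 with library size alone, 30 with the other TMM factors, 5 without the replicate 3 libraries, 7 without KO caput replicate 2 or KO cauda replicate 2 and 6 without KO caput replicate 3.

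The genes lower in the cauda were led by Mir204 and Mir375. Mir375 (chr1:74900658-74900721, minus strand, in no other gene), which is high in secretory cells, had 0.953, 1.45 and 1.81 CPM in the KO caput and 0, 0.0367 and 0 CPM in the KO cauda. It had 814 counts in the KO caput and 1 in the KO cauda, a ratio of 177 (95% exact interval 31.6 to 6985, counting error only, adjusted p = 3.2e-05 in edgeR). Mir204 (chr19:22750605-22750672, plus strand, in an intron of Trpm3 on the same strand) had 0.425, 0.475 and 0.927 CPM in the KO caput and 0, 0 and 0 CPM in the KO cauda. With 384 counts in the caput and none in the cauda, it was at least 27.8-fold lower there against a floor of 3 counts over the group (adjusted p = 0.000324 in edgeR). Its relative Mir211 was too low to be tested, with 7 counts in the KO caput and 1 in the KO cauda. Being at or near 0 in the KO cauda, Mir375 and Mir204 pass the filter on low counts through other groups. Their direction is therefore partly set by the filter.

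Mir146b (chr19:46342762-46342870, plus strand, in an intron of Mfsd13a), known from immune and epithelial cells, had 2.26, 3 and 3.93 CPM in the KO caput and 0.132, 0.33 and 0.198 CPM in the KO cauda (log2 fold change -3.76, SE 0.59, adjusted p = 0.000148). Mir148a (chr6:51269812-51269910, minus strand, in no other gene) had 30.4, 21 and 28.2 CPM in the KO caput and 10.2, 5.83 and 4.16 CPM in the KO cauda (log2 fold change -1.99, SE 0.54, adjusted p = 0.0104). The segments did not overlap in either, which for Mir146b the choice of named genes required. The Mir148a call was lost without the replicate 3 libraries (adjusted p = 0.111) and without KO cauda replicate 2 (adjusted p = 0.0594). Mir320, Mir183, Mir103-1 and Mir20a, chosen after their values were seen like Mir148a, were also lower (-1.61, -1.38, -1.36 and -1.66), and all 4 lost their calls without the replicate 3 libraries (adjusted p = 0.174 to 0.317). The calls of Mir183, Mir103-1 and Mir20a were also lost without KO caput replicate 2, KO caput replicate 3 or KO cauda replicate 3, and those of Mir183 and Mir20a without KO cauda replicate 2 (adjusted p = 0.0598 to 0.166 over these).

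The miR-200 family keeps cells epithelial by repressing Zeb1 and Zeb2. Of its 5 genes 1 was called lower, and the median log2 fold change was -0.90. Mir429 (chr4:156053905-156053987, minus strand) had 1.79, 3.86 and 3.23 CPM in the KO caput and 0.857, 0.917 and 0.424 CPM in the KO cauda (log2 fold change -2.06, SE 0.45, adjusted p = 0.00255), with no overlap. Mir200b and Mir200a, from the same cluster on chromosome 4, were not called (-1.13, adjusted p = 0.0732, and -0.83, adjusted p = 0.17). Mir200b had 2.76, 5.53 and 6.29 CPM in the KO caput and 1.91, 2.97 and 1.78 CPM in the KO cauda, where the highest cauda library lay above the lowest caput library. With the replicate block Mir200b passed (adjusted p = 0.036), and without KO caput replicate 1 (adjusted p = 0.0412). Mir141 and Mir200c, the cluster on chromosome 6, had log2 fold changes of -0.90 (adjusted p = 0.238) and -0.23 (adjusted p = 0.741). Of the epithelial markers Mir205 and Mir203, neither was called (-0.79 and -1.33). With library size alone Mir200a, Mir200b, Mir141, Mir205 and Mir203 all passed as lower (adjusted p = 0.0126 to 0.0409). The summed level of the family was 11.4 to 22.4 CPM in the KO caput and 7.79 to 13.1 CPM in the KO cauda, and the part of epithelial content in the other differences was not tested.

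The Hox clusters, which pattern the body and the reproductive tract along its length, hold 6 miRNA genes in the table, of which 5 were tested, 3 called higher and 0 lower (1 lower at an unadjusted p under 0.05, 0 by DESeq2). The miR-196 genes, with the seed shown above, were higher in the cauda. Mir196b (chr6:52230081-52230165, minus strand, overlapping an exon of Hoxa9 on the same strand) had 0.0173, 0.0216 and 0.0127 CPM in the KO caput and 0.593, 0.88 and 0.607 CPM in the KO cauda (log2 fold change 5.35, SE 0.68, adjusted p = 4.27e-05), with no overlap. Mir196a-2 (chr15:102973350-102973434, plus strand, in an intron of Hoxc5) had no count in the KO caput and 0, 0.11 and 0.184 CPM in the KO cauda, at least 24.6-fold higher against a floor of 3 counts over the group (adjusted p = 0.000415 in edgeR). Mir196a-1 had 3 counts in the KO caput and 15 in the KO cauda, a ratio of 23 (95% exact interval 6.52 to 124). Both Mir196a genes share the mature sequence miR-196a, were at 0 in KO cauda replicate 1 and so overlapped the caput. The Mir196a-1 call was lost without the replicate 3 libraries (adjusted p = 0.0585). Like the X-linked genes above, the miR-196 genes are so low in the KO caput that they pass the filter on low counts mostly through other groups. That all 3 were higher is therefore partly set by the filter.

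The miR-10 genes of the same clusters were not called. Mir10b (chr2:74726070-74726137, plus strand) had 30.5, 30.6 and 42.7 CPM in the KO caput and 22.8, 24.4 and 15.4 CPM in the KO cauda (log2 fold change -0.73, SE 0.34, adjusted p = 0.118). Mir10a (chr11:96317165-96317274, plus strand) had 38.1, 35.4 and 47.9 CPM in the KO caput and 33.6, 33.7 and 22.3 CPM in the KO cauda (log2 fold change -0.44, SE 0.35, adjusted p = 0.374). Both were lower in each cauda library than in each caput library, by less than the fold threshold. With library size alone both passed as lower (adjusted p = 0.018 and 0.044), and Mir10b also with TMM factors computed without tRFs, tRNAs or rRNA fragments (adjusted p = 0.00689). Mir615 had 3 counts in the KO caput and 1 in the KO cauda and was not tested.

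Markers of smooth muscle were higher in the cauda. Mir143 had 21.8, 29.6 and 35.5 CPM in the KO caput and 117, 128 and 99.97 CPM in the KO cauda (log2 fold change 1.99, SE 0.36, adjusted p = 0.000496). Mir145a, from the same transcript, had 1.7, 3.16 and 4.25 CPM in the KO caput and 6.72, 12.3 and 7.47 CPM in the KO cauda (log2 fold change 1.54, SE 0.51, adjusted p = 0.0319). Neither overlapped between the segments. The sum of both was 23.5 to 39.8 CPM in the KO caput and 107 to 140.3 CPM in the KO cauda, and its part in the other differences was not tested. Both calls were lost with library size alone (adjusted p = 0.107 and 0.48), and that of Mir145a without KO caput replicate 1 or 2 or KO cauda replicate 2 (adjusted p = 0.078 to 0.113). Of the striated muscle list 4 genes were tested and 2 were called higher, the copies Mir1a-1 and Mir1a-2, which share their counts (0.555, 0.692 and 0.643 CPM in the KO caput and 1.91, 1.21 and 1.4 CPM in the KO cauda, log2 fold change 1.24, adjusted p = 0.0469). All 4 were called higher with the replicate block, the other two being Mir133a-1 and Mir133a-2. The call of Mir1a-1 and Mir1a-2 was lost when any 1 of the 6 libraries was left out (adjusted p = 0.0547 to 0.177).

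Mir99a, of a family that targets growth signalling, was the only one of the 6 members of the miR-99/100 and miR-125 list called by edgeR without a block. It had 1.31, 2.01 and 1.79 CPM in the KO caput and 3.89, 4.47 and 4.38 CPM in the KO cauda (log2 fold change 1.32, SE 0.38, adjusted p = 0.0167), without overlap. The call was lost without KO caput replicate 1 or 3 (adjusted p = 0.0674 and 0.0505). DESeq2 and the block each called 1 other member lower, Mir99b, chosen after its values were seen (log2 fold change -0.999, adjusted p = 0.0832 in edgeR without the block, -1.09 and adjusted p = 0.0368 with it). Lists with no member called by edgeR without a block were the let-7 family (12 tested, median 0.06, 0 at an unadjusted p under 0.05, 0 by DESeq2), the miR-30 family (6 tested, median -0.47, 1 at an unadjusted p under 0.05, 1 by DESeq2 and 1 with the replicate block, Mir30e, chosen after its values were seen), the miR-29 family (1 tested) and the Dlk1-Dio3 imprinted cluster (6 tested, median 1.52, 3 at an unadjusted p under 0.05, 0 by DESeq2). Of the miR-17 family clusters, 1 of 9 was called, Mir20a (above), and the median was -0.78.

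Of the leukocyte list 3 genes were tested and 1 was lower, Mir146b (above). Mir142 of leukocytes had 0.052, 0.0756 and 0.0637 CPM in the KO caput and 0.0659, 0.0367 and 0.0565 CPM in the KO cauda (log2 fold change -0.27, SE 0.62, adjusted p = 0.794), with overlap. Mir150 and Mir223 were not tested and had at most 0.11 and 0.0367 CPM in any of the 6 libraries. Mir486, an erythroid marker, had 3 counts in the KO caput and 20 in the KO cauda, a ratio of 30.7 (95% exact interval 9.11 to 161). It too passes the filter on low counts mostly through other groups, so its direction is partly set by the filter. Mir451a, which defines that list, had 10 and 2 counts and was not tested. Mir126a of endothelium was not called (log2 fold change -0.94, SE 0.50, adjusted p = 0.169).

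**Figure D4:**
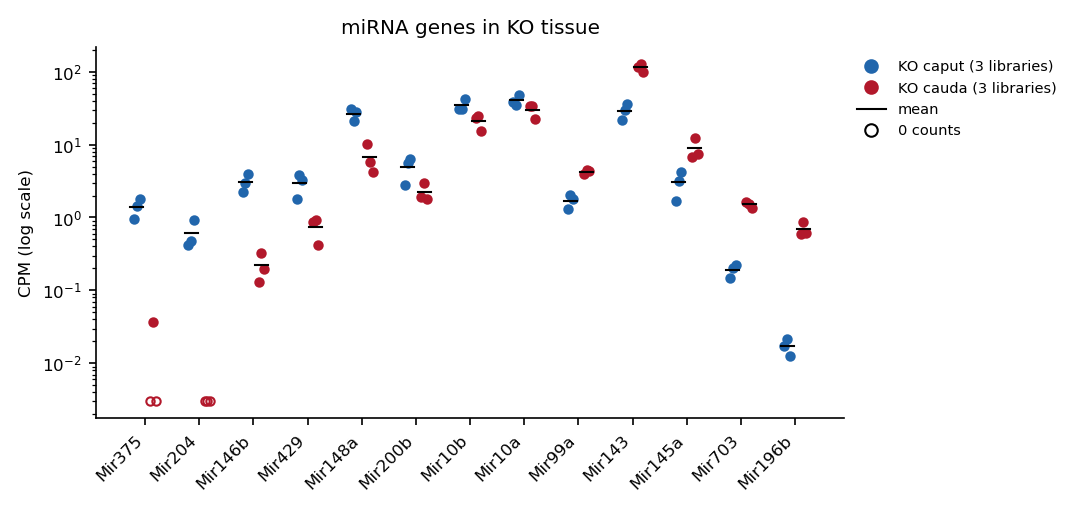
Levels of 13 miRNA genes in CPM (log y axis) in the KO caput (blue) and KO cauda (red), 1 point per library in replicate order, with the mean as a bar where no library was at 0. Open points mark libraries with 0 counts and are drawn at the bottom of the axis. Mir375 and Mir204 are at or near 0 in the cauda, Mir10a and Mir10b differ by less than the fold threshold, and Mir196b, Mir703 and Mir143 are higher in each cauda library.

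The miRNA genes with the smallest p among those higher were Mir703, Mir196b and Gm26377. Mir703 (chr5:98475556-98475664, minus strand, opposite to an intron of Cfap299) had 0.147, 0.205 and 0.223 CPM in the KO caput and 1.65, 1.54 and 1.37 CPM in the KO cauda (log2 fold change 2.96, SE 0.37, adjusted p = 4.01e-05). Gm26377 (chr9:78478528-78478635, minus strand) overlaps an exon of Eef1a1, a translation elongation factor, on the same strand, and had 0.589, 0.681 and 0.694 CPM in the KO caput and 13.5, 15.1 and 5.93 CPM in the KO cauda (log2 fold change 4.13, SE 0.54, adjusted p = 4.61e-05). The segments did not overlap in either, which the choice of named genes required. Among the miRNA genes tested, 30 overlap an exon of a protein-coding gene on the same strand. Of these, 14 (46.7%, against 17.1% of all RNAs) were called higher and 0 (against 8.6%) lower (median log2 fold change 2.11). Of 67 in introns 7 (10.4%) were higher and 6 (8.96%) lower (median -0.02). Of 134 in neither place 32 (23.9%) were higher and 5 (3.73%) lower (median 0.37). This grouping was made after the data were seen, and for the exonic genes reads of the host mRNA cannot be told apart from those of a miRNA. The 14 include genes in exons of Ddx5, Actg1, Col3a1, Rpl19 and Ftl1.

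Of the small nuclear RNAs of the spliceosome and their pseudogenes, 14 of 599 (2.34%, against 17.1% of all RNAs) were called higher and 28 (4.67%, against 8.6%) lower (13 and 56 with the replicate block, median log2 fold change -0.19). A list of 21 named U RNAs held those of the spliceosome and also U3, which acts in rRNA processing, and U7, which acts in histone mRNA processing. Of these 3 (14.3%, against 17.1% of all RNAs) were higher, Rnu11, Rnu12 and Rnu1a1, and 0 lower (11 higher and 1 lower at an unadjusted p under 0.05, 2 higher and 0 lower by DESeq2, median 1.09). With the replicate block 10 were higher, Rnu11, Rnu12 and 8 transcripts of the U3 genes Rnu3b1 to Rnu3b4, and 1 was lower, Rnu7. The Rnu1a1 call (1.09 on the log2 scale, with overlap) was lost without any single library other than KO cauda replicate 3 (adjusted p = 0.051 to 0.186). Rnu11, the U11 RNA of the minor spliceosome, had 13.6, 14.4 and 15.1 CPM in the KO caput and 28.7, 60.1 and 35.4 CPM in the KO cauda (log2 fold change 1.53, SE 0.29, adjusted p = 0.000895). Rnu12, its U12 partner, had 129, 133 and 56.5 CPM in the KO caput and 774, 378 and 141 CPM in the KO cauda (log2 fold change 2.02, SE 0.56, adjusted p = 0.012), and its call was lost without KO caput replicate 3 (adjusted p = 0.0668) or KO cauda replicate 1 (adjusted p = 0.144). All cauda libraries were above the caput in both. Gm25794 and Gm22350 were higher as well (2.09 and 2.14). All 3 named by the rule, Rnu11, Gm25794 and Gm22350, lost their calls with library size alone (adjusted p = 0.0899 to 0.286). Lower were Gm23517, Gm24624 and Gm23102 (-1.36, -1.11 and -1.09). The calls of Gm24624 and Gm23102 were lost without the replicate 3 libraries and that of Gm23102 also without KO caput replicate 3 (adjusted p = 0.0566).

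Small nucleolar RNAs guide the methylation (C/D class) or pseudouridylation (H/ACA class) of rRNA. Snord89 stood out in the C/D class, with 49.97, 55.6 and 26.3 CPM in the KO caput and 4.81, 4.51 and 1.1 CPM in the KO cauda (log2 fold change -3.68, SE 0.62, adjusted p = 0.000304), and every caput library was above every cauda library. Of all 91 C/D snoRNAs tested, 14 (15.4%, against 17.1% of all RNAs) were called higher, among them Snord65 and Snord68, and the class median was 0.95. That median was -0.01 with library size alone, and the number higher moved with single libraries, from 0 without KO caput replicate 3, 1 without KO caput replicate 2 or KO cauda replicate 2 and 4 without KO cauda replicate 1 to 37 without KO cauda replicate 3. It was 39 with the replicate block and 50 without the replicate 3 libraries. Of 41 H/ACA snoRNAs 4 (9.76%, against 17.1% of all RNAs) were higher and 0 lower in edgeR, and 15 higher with the replicate block (0 lower at an unadjusted p under 0.05 and by DESeq2, median 0.88, -0.09 with library size alone).

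Among other snoRNA and scaRNA genes, Gm22009, a scaRNA of the Cajal bodies, had 0.537, 0.908 and 0.621 CPM in the KO caput and 5.8, 7.67 and 3.42 CPM in the KO cauda (log2 fold change 3.03, SE 0.36, adjusted p = 2.91e-05). Gm25188 had 1.05, 1.2 and 1.2 CPM in the KO caput and 6.79, 7.15 and 2.71 CPM in the KO cauda (log2 fold change 2.26, SE 0.35, adjusted p = 0.000129). Gm26922 was higher at low counts (3.28). Gm24120 and Gm22785 were lower, each with 1 count in the KO cauda against 62 and 61 in the KO caput, ratios of 13.5 (95% exact interval 2.33 to 539.8) and 13.2 (95% exact interval 2.29 to 531). The libraries of the segments did not overlap in any of these 5, which the choice of named genes required. Of the 325 snoRNAs of neither named class, 27 (8.31%, against 17.1% of all RNAs) were higher and 45 (13.8%, against 8.6%) lower (57 and 60 with the replicate block, median -0.03).

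Several RNA polymerase III transcripts were higher in the cauda. Rny1, a Y RNA bound by Ro60, had 60.8, 54.8 and 67.6 CPM in the KO caput and 157, 238 and 135 CPM in the KO cauda (log2 fold change 1.53, SE 0.34, adjusted p = 0.00265), with no overlap. Rny3, the other Y RNA tested, was not called and overlapped (21.6, 19.2 and 29.6 CPM in the KO caput and 21.4, 31.8 and 34.3 CPM in the KO cauda, log2 fold change 0.31, SE 0.38, adjusted p = 0.555). Rn7sk, which holds the kinase P-TEFb inactive, had 325, 231 and 151 CPM in the KO caput and 1185, 826 and 310.2 CPM in the KO cauda (log2 fold change 1.71, SE 0.48, adjusted p = 0.0138), where cauda replicate 3 lay below caput replicate 1. The Rn7sk call was lost without KO caput replicate 3 (adjusted p = 0.0791) or KO cauda replicate 1 (adjusted p = 0.131). Of 9 tested RNAs in the list of 7SK, 7SL, vault, RNase P and RNase MRP RNAs, 5 (55.6%, against 17.1% of all RNAs) were higher and 0 lower in edgeR (0 lower at an unadjusted p under 0.05 and by DESeq2, median 1.24). In WT tissue 1 of the 9 was called higher (median 0.70), and 0 of the 2 Y RNAs. A difference between KO and WT was called for 0 of all RNAs without a block (below). Rmrp, the RNA of RNase MRP, which cuts precursor rRNA, had 29.5, 25.8 and 22.4 CPM in the KO caput and 97, 90.6 and 41.4 CPM in the KO cauda (log2 fold change 1.56, SE 0.33, adjusted p = 0.00192). Rpph1, the RNA of RNase P, which trims the 5' end of tRNAs, had 11.9, 6.8 and 8.31 CPM in the KO caput and 26, 21.7 and 16.3 CPM in the KO cauda (log2 fold change 1.24, SE 0.39, adjusted p = 0.0242). The segments did not overlap in Rmrp or Rpph1, but the Rpph1 call was lost without KO caput replicate 2 or 3 or KO cauda replicate 1 or 2 (adjusted p = 0.0655 to 0.127). With library size alone the calls of Rny1, Rn7sk, Rmrp and Rpph1 were lost (adjusted p = 0.142 to 0.589).

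The same contrast was fitted in WT tissue, where 549 RNAs (15.7%) were called higher and 254 (7.28%) lower in the cauda (19.8% and 9.43% with the replicate block). WT caput replicate 3 carries a section label that reads cauda, and its title was used. Of the 898 RNAs called in KO, 580 were called in the same direction in WT, 64.6% of the KO calls and 72.2% of the 803 WT calls, and 0 in the opposite direction. Across all 3488 RNAs, which share reads and are not replicates, Pearson's r of the log2 fold changes of KO and WT was 0.87. Class medians lay close for 18S repeats (3.81 in KO and 3.62 in WT), 28S repeats (3.39 and 3.51) and piRNA loci (2.88 and 2.95). Among piRNA loci the medians were 3.41 and 3.52 for the 232 named after a gene, of which 215 and 221 were called higher, and 1.95 and 1.21 for the 129 named by chromosome band, of which 63 and 26 were called higher. For miRNAs, Mir375 had -7.11 in KO and -7.57 in WT in the fit, Mir196b 5.35 and 5.95, Mir143 1.99 and 2.53, and Snord89 -3.68 and -4.31.

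Other classes differed more in their medians between the genotypes. The medians of tRF_5, tRF_3 and tRF_other were -0.86, -0.77 and -1.15 in KO and -0.26, -0.43 and -0.52 in WT, and of the 606 tRFs 199 were lower in KO and 67 in WT. Of the anticodon sums, 61 were lower in KO and 10 in WT, where 7.16% of the features of that fit were lower. C/D snoRNAs had a median of 0.95 in KO and -0.05 in WT. None of these differences was shown by the test of single RNAs without a block. The difference of the segment contrast between KO and WT was called for 0 of 3488 RNAs (0.0%) in edgeR, with 83 positive and 128 negative at an unadjusted p under 0.05 and a smallest adjusted p of 0.342. For the anticodon sums the smallest adjusted p of the difference was 0.779, and for Val-CAC tRF_5, for example, the difference was -1.08 (SE 0.48). With the replicate block 1 sum was called for the difference, Gly-GCC tRF_5 (-1.67, SE 0.38, adjusted p = 0.0428, where 0.528% of the features of that fit were called), chosen after its values were seen. Its log2 fold changes were -0.27 in KO and 1.39 in WT, neither of them called, and the adjusted p of its difference without the block was 1.0.

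With the replicate number as a block, 16 RNAs (0.459%) were called, all with a smaller log2 fold change in KO than in WT, and DESeq2 without a block also called 16 lower, of which 14 were shared. Of the 16 called with the block, 14 were 28S repeats that share reads, with log2 fold changes of 3.90 to 4.13 in KO and 5.78 to 6.61 in WT. They were therefore higher in the cauda of both genotypes. The 5 smallest p of the difference without the block belonged to rmsk_28S_390, rmsk_28S_873, rmsk_28S_874, rmsk_28S_880 and tRNA-Lys-CTT-14_other (differences of -1.86, -2.01, -2.01, -2.48 and -1.51, adjusted p = 0.342 each). Without WT caput replicate 2, 13 RNAs were called for the difference, and without any other single caput or cauda library 0.

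**Figure D5:**
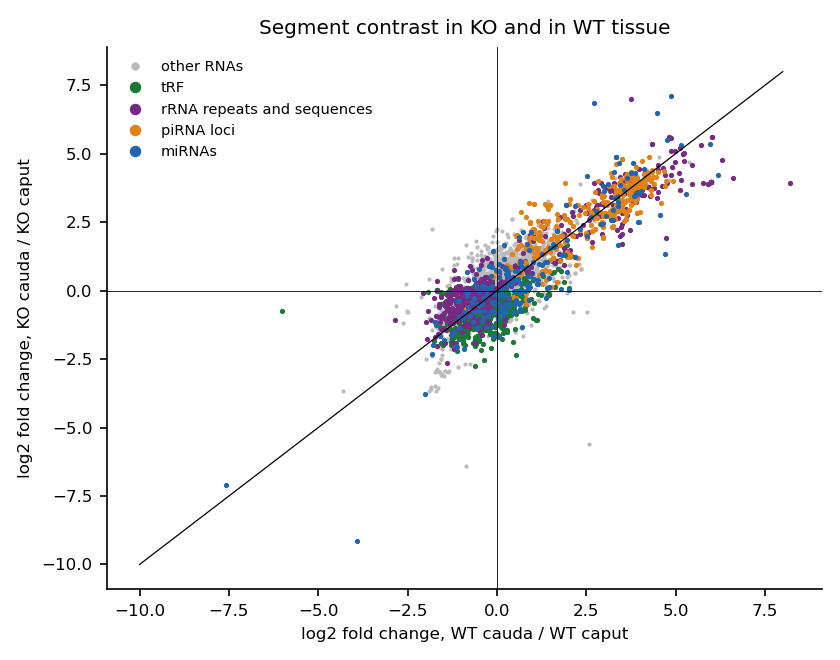
Log2 fold change of cauda over caput in WT tissue (x axis) and KO tissue (y axis), 1 point per RNA tested, coloured by class, with the line of equal values. The medians of 18S repeats (3.81 in KO and 3.62 in WT), 28S repeats (3.39 and 3.51) and piRNA loci (2.88 and 2.95) lie in the upper right, and tRF medians lie below 0 on both axes. Points far below 0 or far above it on 1 axis, such as Mir204, include RNAs with 0 counts in a group, whose fitted fold is no bound.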

How the data were processed

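Small RNAs of tissue were measured in 17 libraries, of which the 6 KO caput and KO cauda libraries were compared here. Per the labels and the study's methods, the authors trimmed adapters with cutadapt, aligned reads with bowtie2 to mm10 together with tRNA and rRNA sequences in a modified tRAX pipeline, and deposited raw counts in which a read was counted on each feature it matched equally well. Hence 529 of 4890 RNAs share their counts with another.

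Counts were fitted with the quasi-likelihood test of edgeR 4.0.16 (R 4.3.3) over all 17 libraries in 6 groups, with TMM scaling and a filter on low counts (minimum count 10, total 15), which left 3488 RNAs. RNAs at or near 0 in 1 segment pass this filter through groups where they are higher, so the direction of their calls is partly set by it. Benjamini-Hochberg adjustment ran over all RNAs tested. The SE given with an edgeR log2 fold change is its absolute value divided by the square root of the test's F statistic. It was not estimated on its own. Summed counts of the 6 libraries ran from 30142156 to 209912888, and intervals cover counting error only. The study calls the tissue replicates biological replicates. The labels do not say that they were separate animals, so p-values measure the spread between these libraries. No 2 replicates agreed within sampling noise. The replicate block takes the numbers to pair the samples. Deviations of same-numbered libraries of a genotype had correlations of 0.175 to 0.602 in KO and 0.306 to 0.633 in WT. Only 1 of 3 KO caput libraries correlated best with the cauda library of its own number (3 of 3 in WT). KO caput replicate 2 correlated more with KO cauda replicate 1 (0.353) than with its own number (0.228). The KO values alone therefore do not show pairing.

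In each class the 3 RNAs with the smallest p per direction among called RNAs without overlap were named, with the rRNA sequences, fixed miRNA lists and 8 anticodons. Other names were chosen after their values were seen. The members and lists were chosen with earlier results of these data known. Alternatives were other scalings, DESeq2 1.42.0, other filters, a fit of 6 libraries, the replicate block, collapsed features and leaving out libraries. Thinning and leaving out all replicate 3 libraries or repeats with mitochondrial rRNA counts were chosen after the data were seen. The fits were tested on simulated data. Fluid and sperm libraries were not analysed here.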

Additional observations from a re-analysis of the deposited data

Results flagged for a closer look

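With the replicate number as a block, the segment contrast of KO tissue differed from that of WT tissue for 16 RNAs (0.459% of those tested), each by a test of the difference itself. Of these, 14 were 28S rRNA repeats that share reads and were higher in the cauda of both genotypes. The difference in log2 fold change was -2.39 (KO minus WT) for rmsk_28S_880. The difference in log2 fold change was -1.99 (KO minus WT) for rmsk_28S_878, rmsk_28S_896, rmsk_28S_883, rmsk_28S_899, rmsk_28S_879, rmsk_28S_881, rmsk_28S_890, rmsk_28S_876, rmsk_28S_882 and rmsk_28S_893. The difference in log2 fold change was -1.97 (KO minus WT) for rmsk_28S_874 and rmsk_28S_873. The difference in log2 fold change was -1.83 (KO minus WT) for rmsk_28S_390. The other two were the tRF tRNA-Glu-TTC-2_fiveprime, at -1.73, and the snRNA gene Gm25106, at -2.04. For tRNA-Glu-TTC-2_fiveprime the log2 fold change was 0.09 in KO and 2.02 in WT, and for Gm25106 -0.57 and 1.37. Adjusted p-values (edgeR) of these 16 ran from 0.0405 to 0.0497 with the block, and the smallest of any RNA without it was 0.342. With tRFs summed by anticodon, the block also called the sum Gly-GCC tRF_5 different between the genotypes (difference -1.67, KO minus WT, adjusted p = 0.0428 in edgeR). Its log2 fold change was -0.27 in KO and 1.39 in WT, neither of them called, and the difference was not called without the block. The block takes equal numbers as pairs, but only 1 of 3 KO caput libraries correlated best with the cauda library of its own number.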

How the results depend on the processing

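The directions of 18S, 28S and mitochondrial rRNA, piRNA loci and tRFs were kept under each alternative run. The cause of each change was not tested. With library size alone 391 RNAs were higher and 641 lower, with 336 tRFs and 34 miRNAs lower and 0 C/D snoRNAs and 7 mitochondrial tRNAs higher. The medians of log2 fold changes were then -1.52 (tRF_5), -1.53 (tRF_3), -1.91 (tRF_other), -0.31 (full-length tRNA), -0.98 (5S repeats), -0.58 (miRNA), -0.93 (snRNA), -0.82 (other snoRNA) and 2.01 (piRNA loci), and the sign turned for tRNA loci (-0.33), C/D snoRNAs (-0.013) and H/ACA snoRNAs (-0.094). With TMM factors computed without tRFs, tRNAs or rRNA fragments 775 RNAs, 402 tRFs, 30 miRNAs and 101 anticodon sums were lower and 2 C/D snoRNAs higher, and the medians were -1.34, -1.25 and -1.65 for the same tRF types, 0.073 (tRNA loci), -0.78 (5S repeats), -0.30 (miRNA), -0.70 (snRNA), 0.36 (C/D snoRNA), -0.53 (other snoRNA) and 2.33 (piRNA loci).

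Without the replicate 3 libraries 924 RNAs were higher, with 5 miRNAs lower and 50 C/D snoRNAs and 36 mitochondrial tRNAs higher, and medians of 1.19 (tRNA loci), 1.55 (full-length tRNA), 0.68 (miRNA) and 3.6 (piRNA loci). With the replicate block 20 miRNAs were lower and 39 C/D snoRNAs and 29 mitochondrial tRNAs higher, and the difference between KO and WT was called for 16 RNAs, as with DESeq2 (16). Of 130 named values, 122 stayed on the same side of the threshold with the block, 7 passed it and 1 no longer did. Fitting the 6 KO libraries alone gave 149 RNAs and 25 anticodon sums lower. With 1 repeat kept per rRNA type and tRFs summed, 348 RNAs were higher. After thinning 33 miRNAs were higher, and medians were 0.25 (other snoRNA) and 3.43 (piRNA loci). Without a filter 8 C/D snoRNAs were higher and the median of other snoRNAs was -0.36.

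For shares of counts, keeping the most counted repeat of each rRNA type and anticodon gave log2 ratios of -0.50 (5S), 3.14 (18S), 2.06 (28S), 4.04 (mitochondrial rRNA), -0.89 (miRNA), -0.58 (snRNA), -0.38 (snoRNA and scaRNA), 1.497 (piRNA loci), -0.43 (tRNA loci) and -0.87 (misc_RNA), and leaving out rRNA gave -0.066 (miRNA), 0.44 (snoRNA and scaRNA), 2.32 (piRNA loci), 0.40 (tRNA loci) and -0.044 (misc_RNA). When single libraries were left out, the ranges were 186 to 372 RNAs lower, 0 to 13 for the difference, 118 to 242 tRFs and 6 to 16 miRNAs lower, 0 to 37 C/D snoRNAs and 8 to 25 mitochondrial tRNAs higher, 37 to 92 anticodon sums lower, and medians of 0.31 to 0.86 (tRNA loci) and 2.68 to 3.51 (28S repeats). Depth limits the miRNAs, where several calls rest on 3 or fewer counts in a segment.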
